A study of Mus musculus with 123 samples.

Results

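Irx4, Hey1, Hey2, Nr2f1, Nr2f2, Tbx2, Tbx3, Tbx18 and Bcl11a are transcription factors, most of which are known for giving the chambers, the atrioventricular canal and the conduction tissue of the heart their identity. These 9 genes were chosen by name from the 23337 gene rows of a table of read counts and described in single αMHC-GFP+ cells of the mouse heart. αMHC-GFP mice carry a green fluorescent protein under the promoter of the cardiac α-myosin heavy chain gene, so the sorted cells were marked by the activity of that promoter and not by their place in the heart. Hearts came from embryos of days E9.5 and E12.5 and from pups of postnatal day 1 (P1), no group was treated, and the cells were captured on Fluidigm C1 chips. The table held 42, 29 and 52 cells, of which 42, 29 and 41 with at least 2000 genes at 1 count or more were kept, and the 11 cells left out were all from P1. The labels named no animal, litter or chip for a cell, so each time point was a single sample of cells and no p-value or standard error was computed between time points. The beginnings of the cell titles formed naming sets, which were set C (14 cells) and set N530 (28 cells) at E9.5, set C (20), set N523 (8) and a single cell of set E12-5b at E12.5, and set C (41) at P1. The spread between naming sets was the only error available for a difference between time points.

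Irx4, an Iroquois homeobox factor, and Hey2, a basic helix-loop-helix repressor and target of Notch signalling, are known for keeping the ventricular programme on and atrial genes off. Hey1, a close relative of Hey2, and the orphan nuclear receptors Nr2f1 and Nr2f2 (COUP-TFI and COUP-TFII) are linked to atrial identity, and Nr2f2 is also expressed by venous endothelium. Tbx2 and Tbx3 are T-box repressors of the atrioventricular canal and outflow tract that hold back chamber genes such as Nppa, and Tbx3 stays on in the conduction system. Tbx18 is a T-box factor of the sinus horns, the sinus node head and the epicardium. Bcl11a is a zinc finger repressor best known for silencing fetal globin genes in red cell precursors. Myl2 encodes the ventricular regulatory myosin light chain and Nppa encodes atrial natriuretic factor, a hormone of chamber myocardium that becomes mostly atrial around birth, and both were used as references for the 9 factors.

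RefSeq promoter windows on GRCm38.p6, from 250 bases before to 50 bases after the transcription start, were at hand for 6 of the 9 factors (Irx4, Hey2, Nr2f1, Nr2f2, Tbx18, Bcl11a) and for Nppa. Short sequences to which the factors or their regulators are known to bind were searched on both strands of these windows: the T-box core GGTGTGA, the Rbpj core GTGGGAA through which Notch acts, and AGGTCA, a site of nuclear receptors. The T-box core was present in 3.98% of all 32851 windows of this length, the Rbpj core in 6.38% and AGGTCA in 16.3%. Nppa held 1 T-box core, as did Bcl11a. Hey2 held 2 Rbpj cores and Tbx18 held 1, and AGGTCA was in none of the 7 windows. The Nppa and Hey2 windows, up to 20 bases after the start, are shown because Nppa is the reference gene that Tbx2 and Tbx3 are known to repress and Hey2 is the Notch target among the ventricular factors, with the T-box core or the Rbpj cores in capitals on either strand. Nppa lies on the plus strand at chr4:148000472-148000741 and Hey2 on the minus strand at chr10:30842764-30843033. A match is a description of the letters and not a bound site.
Nppa: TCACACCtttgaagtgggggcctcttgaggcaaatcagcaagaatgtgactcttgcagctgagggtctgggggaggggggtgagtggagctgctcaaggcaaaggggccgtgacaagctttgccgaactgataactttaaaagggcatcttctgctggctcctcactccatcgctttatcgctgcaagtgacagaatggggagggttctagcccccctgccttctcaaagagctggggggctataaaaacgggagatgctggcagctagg
Hey2: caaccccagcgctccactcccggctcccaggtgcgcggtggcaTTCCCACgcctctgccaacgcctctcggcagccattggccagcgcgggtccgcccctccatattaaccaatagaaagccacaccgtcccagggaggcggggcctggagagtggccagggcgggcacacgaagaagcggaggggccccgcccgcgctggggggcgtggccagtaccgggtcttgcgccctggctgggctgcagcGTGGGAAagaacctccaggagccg

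Read totals differed strongly between the sets and touched every value that follows. The median total per kept cell was 2476022 counts for E9.5 and 493238 for E12.5, but 149078 for P1. At E9.5 set C had 415428 counts per cell and set N530 had 3151946. The summed totals were 101042067, 50538600 and 6819717 counts, so that a gene at 0 counts may still have been present at up to 0.0297, 0.0594 and 0.440 CPM (counts scaled to a total of 1000000 per cell), the level of 3 counts of the summed total. Shares of cells were therefore also taken after every cell had been thinned at random to 100000 counts, which left out 3 P1 cells. Intervals are exact at 95%. Those of shares treat cells as independent draws. Those of ratios of pooled counts, marked as counting error, treat reads as independent, which reads without molecular identifiers need not be. Neither covers the spread between naming sets. Of 15 cardiomyocyte genes, the median cell of either embryonic time point had counts of 14 and the median P1 cell had counts of 13. Exceptions were E9.5 cells 3, 5 and 8, with 2, 6 and 3 of these genes, and E9.5 cell 5, E9.5 cell 34 and P1 cell 25, with summed levels of 10 endothelial genes of 2024, 1570 and 9656 CPM. These came from 8 of the 10 genes in E9.5 cell 5 and 7 in P1 cell 25, but from 2 in E9.5 cell 34. That cell had 14 of the 15 cardiomyocyte genes, at a summed level of 87944 CPM. E9.5 cell 30 had 13 of the cardiomyocyte genes, but at a summed level of 3783 CPM against a median of 73318 CPM at E9.5, beside 6 of 10 fibroblast genes at 1131 CPM, and is not among these 5. Calls lost without these 5 cells are named beside the result. No erythroid or macrophage marker was found at P1.

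A mean level below is the mean over cells of a cell's CPM. A factor was called lower or higher at a time point when this mean differed by at least 2-fold and in the same direction in every combination of naming sets of 6 or more cells. Over all genes, P1 stood at a median log2 ratio of -0.67 to E9.5 and of -0.36 to E12.5, and E12.5 at -0.24 to E9.5, so a ratio of 0 is not the middle of the table. With TMM factors these medians were -0.47, -0.30 and -0.11. Against E9.5, 5 of the 9 factors were called lower at P1 (Hey1, Nr2f1, Nr2f2, Tbx2 and Tbx3), beside 33.7% of 11795 genes tested, and 1 was called higher (Bcl11a), beside 19.2%. From E9.5 to E12.5, 2 were called lower (Hey1 and Tbx2), beside 17.8% of 12036 genes, and 2 higher (Hey2 and Bcl11a), beside 8.02%. From E12.5 to P1, 4 were called lower (Nr2f1, Nr2f2, Tbx3 and Bcl11a), beside 21.2% of 11425 genes, and 1 higher (Irx4), beside 21.4%. Of the 9 factors Bcl11a was the only one called in all 3 comparisons, and Tbx18 was called in none. Under some alternatives Tbx18 was called too, as lower at P1 than at E12.5 with TMM factors, with TPM, with a minimum of 1000 genes and in set C alone, and as higher at E12.5 than at E9.5 with TMM factors and in set C alone.

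**Figure D1:**
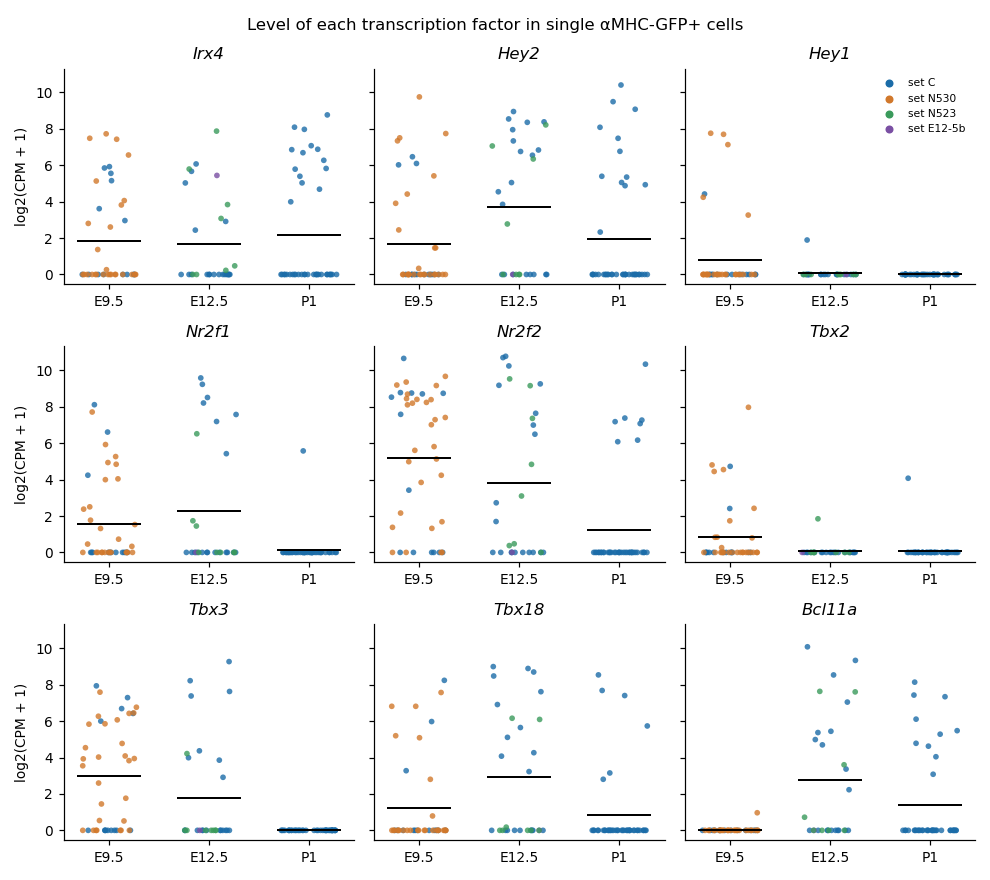
Level of each factor in every kept cell as log2(CPM + 1) at E9.5 (42 cells), E12.5 (29) and P1 (41), with points coloured by naming set and a black line at the mean of these log values. Hey1 and Tbx3 lie at 0 in all 41 P1 cells, Bcl11a is above 0 in 1 of 42 E9.5 cells, and most panels split into cells at 0 and cells well above 0.

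The ventricular factor Irx4 was found, at 1 count or more, in similar shares of cells at each time point. It was found in 17 of 42 E9.5 cells (40.5%, 25.6 to 56.7), 12 of 29 E12.5 cells (41.4%, 23.5 to 61.1) and 14 of 41 P1 cells (34.1%, 20.1 to 50.6). In the cells that had it, its median level was 34.1 CPM at E9.5 (range 0.200 to 211), against 22.5 CPM among E12.5 cells (range 0.170 to 234) and 89.4 CPM among P1 cells (range 14.9 to 435). These ranges overlap, and the lowest level a cell could show was set by its total. The mean over all cells was 22.5 ± 50.7 CPM (SD over 42 cells), 17.6 ± 45.8 CPM (29 cells) and 42.1 ± 90.04 CPM (41 cells). The call of Irx4 as higher at P1 than at E12.5 rested on a log2 ratio of 1.25, with 2.40 against set C and 0.12 against set N523 of E12.5. It was lost with TMM factors, with pooled counts and with a minimum of 3000 genes per cell. Against E9.5, Irx4 was called higher at P1 with TMM factors, in set C alone and without the titles ending in "no". The E12.5 mean in turn leaned on E12.5 cell 26 of set N523, which held 63.9% of the Irx4 counts, and was 9.90 CPM without it.

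Hey2, the other ventricular factor, was found most often at E12.5. It was present in 14 of 42 E9.5 cells (33.3%, 19.6 to 49.5), 16 of 29 E12.5 cells (55.2%, 35.7 to 73.6) and 12 of 41 P1 cells (29.3%, 16.1 to 45.5). In the cells with Hey2 the median was 52.9 CPM at E9.5 (range 0.262 to 865), against 123 CPM among E12.5 cells (range 5.84 to 495) and 74.5 CPM among P1 cells (range 4.03 to 1361). Its mean was 41.1 ± 140 CPM, 97.8 ± 141 CPM and 81.8 ± 251 CPM (SD over cells). The E12.5 to E9.5 log2 ratio was 1.25 with all cells of a time point together and ran from 0.26 to 2.89 when naming sets were compared, and the call was lost with pooled counts, with thinning and with the deposited TPM. At E9.5, cell 28 held 50.4% of the Hey2 counts, and the mean without it was 21.0 CPM. Hey2 was also called higher at P1 than at E9.5 under 5 alternatives, which were TMM factors, thinning, set C alone, leaving out the titles ending in "no" and leaving out the cell with the most counts in each group. The P1 mean fell from 81.8 to 49.8 CPM without P1 cell 42, which reached 1361 CPM.

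Hey1, unlike its relative Hey2, was nearly confined to E9.5. It was found in 6 of 42 E9.5 cells (14.3%, 5.43 to 28.5), at 8.61, 17.9, 20.4, 140, 207 and 216 CPM, and 5 of these 6 cells were of set N530. At E12.5 a single count in 1 of 29 cells was all that was seen, and at P1 none was seen in 41 cells, which allows a level of up to 0.440 CPM. On mean CPM over all cells, Hey1 was 155-fold lower at E12.5 than at E9.5, a log2 ratio of -7.28. By naming set this log2 ratio ran from -8.20 to -1.9999, all bounds with the E12.5 sets at their limits. Pooled over cells, Hey1 was 933-fold higher at E9.5 than at E12.5 (167 to 36864, counting error), from 1865 counts against 1 count. That interval does not cover the spread between naming sets. The mean of Hey1 at E9.5 was 14.5 ± 49.6 CPM, or 9.61 CPM without E9.5 cell 31, which held 42.1% of the E9.5 counts. With all cells this mean was at least 33-fold above the P1 limit. The bound was smaller in set C of E9.5, a log2 ratio of -1.73 from 7 counts in E9.5 cell 5, a cell with 6 of 15 cardiomyocyte genes and 8 of 10 endothelial genes. Both calls of Hey1 were lost without the 5 cells named above and also after thinning.

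The Notch and neuregulin genes among which Hey1 and Hey2 work were taken as a list of 18. At P1 against E9.5, 8 of the 14 that could be tested were called lower and 2 higher (median log2 ratio -1.57, with genes at 0 counts at their bound), beside the 33.7% and 19.2% over all genes. At E12.5 against E9.5, 6 of 13 were called lower and none higher, beside 17.8% and 8.02%, with a median of -1.09. At P1 against E12.5, 2 of 12 were called each way, beside 21.2% lower and 21.4% higher. The ligand Jag1 was called lower at each step, with means of 1049 CPM (40 of 42 E9.5 cells), 385 CPM (20 of 29 E12.5 cells) and 34.8 CPM (7 of 41 P1 cells). The receptor Notch2, at 185 CPM in E9.5 cells and 83.5 CPM in P1 cells, was called lower, and so was the neuregulin receptor Erbb2, at 94.0 and 15.4 CPM. Its partner Erbb4 had means of 22.0, 28.6 and 15.6 CPM in time order and was not called.

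Nr2f2 was the most widespread of the 9 factors at E9.5. It was found in 32 of 42 E9.5 cells (76.2%, 60.5 to 87.9), 17 of 29 E12.5 cells (58.6%, 38.9 to 76.5) and 7 of 41 P1 cells (17.1%, 7.15 to 32.1), and after thinning in 69.05%, 44.8% and 18.4%. In the cells with Nr2f2 the median was 284 CPM at E9.5 (range 1.4996 to 1618), against 164 CPM among E12.5 cells (range 0.297 to 1752) and 144 CPM among P1 cells (range 66.8 to 1298). Means were 226 ± 312 CPM, 268 ± 497 CPM and 49.6 ± 205 CPM (SD over cells). The level at E12.5 did not differ from that at E9.5 in a fixed direction, with log2 ratios from -0.56 to 0.64 by naming set. It fell at P1, by 2.19 on the log2 scale against E9.5 and by 2.43 against E12.5, with every naming set giving a fall of at least 1.93. P1 cell 25, the cell with 9656 CPM of endothelial transcripts, held 267 of the 384 P1 counts of Nr2f2. Without it the P1 mean was 18.4 CPM and the log2 ratios were -3.53 against E9.5 and -3.80 against E12.5, with the top cell of each other group also left out.

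Nr2f1 was found in fewer cells than Nr2f2 at each time point. It was present in 18 of 42 E9.5 cells (42.9%, 27.7 to 59.0), 10 of 29 E12.5 cells (34.5%, 17.9 to 54.3) and 1 of 41 P1 cells (2.44%, 0.0617 to 12.9), P1 cell 3, where 7 counts gave 46.8 CPM. The level in cells with Nr2f1 had a median of 15.2 CPM (0.260 to 277) at E9.5 and of 168 CPM (1.73 to 768) at E12.5. The mean was 19.1 ± 54.5 CPM and then 86.3 ± 191 CPM, but the direction was not shared by the naming sets. Set C of E12.5 averaged 120 CPM and set N523 11.8 CPM, above and below the E9.5 sets with 27.96 and 14.7 CPM, and Nr2f1 was not called. Without its top cell, set N523 averaged 0.581 CPM and set N530 7.45 CPM. Set C of E9.5 averaged 8.83 CPM without E9.5 cell 8, which had 3 of 15 cardiomyocyte genes. The order of set N523 and the E9.5 sets thus depended on single cells. At P1 the mean was 1.14 CPM, called lower with log2 ratios of -4.06 against E9.5 and -6.24 against E12.5. Nr2f6, a relative of both receptors, was found in 19, 5 and 10 cells at 17.4, 5.20 and 9.80 CPM and was not called in any comparison.

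Of the canal repressors Tbx2 and Tbx3, Tbx2 was found mainly at E9.5 and Tbx3 at both embryonic time points. Tbx2 was present in 12 of 42 E9.5 cells (28.6%, 15.7 to 44.6), in 1 of 29 E12.5 cells and in 1 of 41 P1 cells. Its E9.5 levels were low, with a median of 4.35 CPM (0.200 to 250) in the cells with Tbx2, and E9.5 cell 28 held 67.6% of its counts. The mean at E9.5 was 8.57 ± 38.9 CPM and was 2.67 CPM without that cell. Pooled over cells, Tbx2 was 20.3-fold higher at E9.5 than at P1 (6.91 to 98.5), from 901 counts against 3. After thinning it was found in 5 of 42 E9.5 cells, and its calls as lower at E12.5 and at P1 were lost.

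Tbx3 was present in 26 of 42 E9.5 cells (61.9%, 45.6 to 76.4) and 9 of 29 E12.5 cells (31.0%, 15.3 to 50.8), and in none of 41 P1 cells (0 to 8.60%). By naming set it was found at E9.5 in 5 of 14 cells of set C and 21 of 28 of set N530. At E12.5 it was found in 8 of 20 cells of set C and 1 of 8 of set N523. In the cells with Tbx3 the median was 41.2 CPM (0.430 to 245) at E9.5 and 19.7 CPM (6.54 to 618) at E12.5. The mean at E9.5, 36.2 ± 56.96 CPM, was at least 82.3-fold above the P1 limit, and the naming sets gave bounds of -6.72 and -6.14 on the log2 scale. It was called lower at P1 than at E9.5 under every alternative tried, thinning included, while its call as lower at P1 than at E12.5 (at least 106-fold) was lost after thinning. By naming set of E12.5 the latter bound was -7.24 for set C and -2.32 for set N523, and E12.5 cell 9 held 52.97% of the E12.5 counts of Tbx3, with a mean of 26.2 CPM without it. At E12.5 the mean was 46.6 ± 130 CPM, made of 66.7 CPM in the 20 cells of set C and 2.20 CPM in the 8 cells of set N523. In set C, 9 cells carried titles ending in "no", an ending the labels do not explain. Tbx3 was found in 5 of these 9 cells, at up to 618 CPM, and in 3 of the other 11, at up to 14.9 CPM. Without the cells so titled the E12.5 to E9.5 log2 ratio was -3.82 in place of 0.36 and Tbx3 was called lower.

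Tbx18 was the only T-box factor of the 3 still found in several P1 cells. It was present in 10 of 42 E9.5 cells (23.8%, 12.1 to 39.5), 14 of 29 E12.5 cells (48.3%, 29.4 to 67.5) and 6 of 41 P1 cells (14.6%, 5.57 to 29.2). The 6 P1 cells had 6.00, 7.90, 52.3, 169, 205 and 372 CPM, and the embryonic cells with Tbx18 had medians of 48.9 CPM (E9.5) and 68.9 CPM (E12.5). Means were 20.5 ± 58.6, 80.5 ± 154 and 19.8 ± 69.9 CPM. The E12.5 value came from set C, at 110 CPM, while set N523 stood at 17.3 CPM, near the means of the other time points. Without the top cell of each, set N523 stood at 9.64 CPM, E9.5 at 16.4 CPM and P1 at 11.0 CPM. The epicardium also expresses Tbx18, so its markers are given beside it. Among the 10 E9.5 cells with Tbx18 the summed level of 10 epicardial genes had a median of 241 CPM (0 to 972), and among the 32 without it 5.65 CPM (0 to 2696). At E12.5 the medians were 0 CPM in both, at up to 285 and 525 CPM, and at P1 9 of the 10 epicardial genes were at 0 counts in all cells, the exception being Sema3d with counts in 3 cells (mean 13.8 CPM). Of these 9, Upk3b, Aldh1a2 and Msln were at 0 at E9.5 as well, as was Sema3d. The part of epicardial cells in the Tbx18 values was not tested.

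A list of 20 genes of the canal and the conduction system, without the factors themselves, was set beside Tbx2 and Tbx3. Of 18 that could be tested at P1 against E9.5, 12 were called lower and 1 higher, beside 33.7% and 19.2% of all genes, with a median log2 ratio of -4.13 against -0.67 over all genes. At E12.5 against E9.5, 5 were called lower and none higher, beside 17.8% and 8.02%, with a median of -0.21. At P1 against E12.5, 4 were called lower and 2 higher, beside 21.2% and 21.4%, with a median of -3.66 against -0.36 over all genes, so that the calls lay near those of all genes and the median did not. Id2, a helix-loop-helix inhibitor used by the ventricular conduction system, had a mean of 875 CPM in E9.5 cells (found in 41 of 42) and 859 CPM in E12.5 cells (24 of 29), and was called lower at P1 (51.1 CPM, 6 of 41). The T-box factor Tbx20 differed little, with means of 438, 448 and 409 CPM, and the T-box activator Tbx5 had means of 87.5, 96.5 and 55.2 CPM, neither being called. Smoc2 was found in 5 of 29 E12.5 cells and no P1 cell and was not called.

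Bcl11a had the largest log2 ratio of the 9 factors over all cells, 11.7 for E12.5 to E9.5 with E9.5 taken at its limit. By naming set its ratios overlapped in size with those of Hey1. At E9.5 it was found in 1 of 42 cells, with 3 counts at 0.955 CPM, in E9.5 cell 32. At E12.5 it was found in 14 of 29 cells (48.3%, 29.4 to 67.5), with a median of 41.5 CPM (0.649 to 1086). At P1 it was found in 10 of 41 cells (24.4%, 12.4 to 40.3), with a median of 40.8 CPM (7.47 to 282). The groups overlap at 0 counts, and among cells with Bcl11a 1 E12.5 cell lay below the single E9.5 value. Pooled over cells, the ratio to E9.5 was 1885 at E12.5 (644 to 9148) and 716 at P1 (240 to 3513, counting error). By naming set the log2 ratios of mean CPM to E9.5 ran from 6.56 to 11.8 at E12.5 and from 5.25 to 9.23 at P1. The lowest are bounds against set C of E9.5, which had no count. Both naming sets of E12.5 had Bcl11a in 50% of their cells, at means of 119 and 50.5 CPM, and it stayed called against E9.5 under every alternative. The means of 96.2 ± 236 CPM (E12.5) and 20.4 ± 56.4 CPM (P1) gave a log2 ratio of -2.24, which became -0.57 and was not called without the cells titled "no". Its relative Bcl11b was found in 3, 6 and 2 cells at means of 0.585, 22.6 and 2.63 CPM, and was called higher at P1 than at E9.5.

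**Figure D2:**
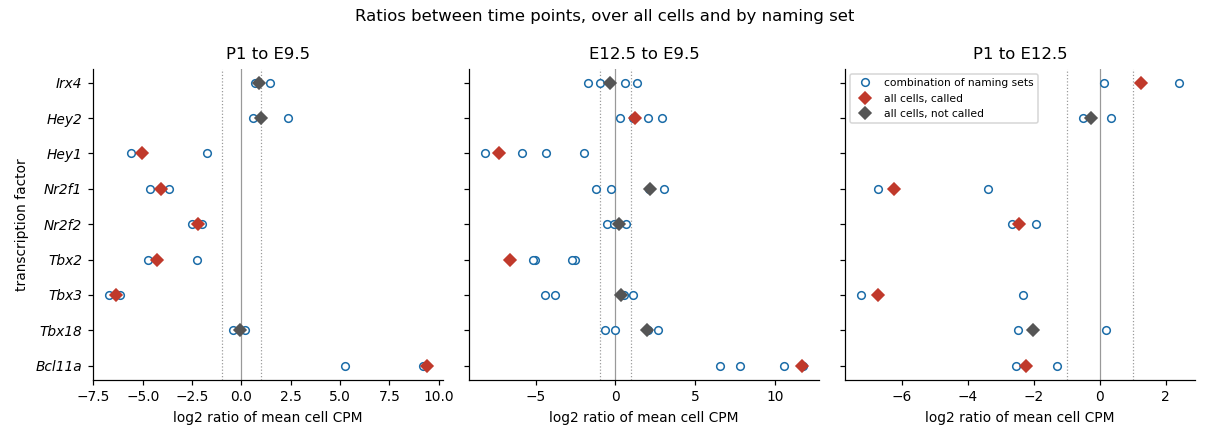
Log2 ratio of mean cell CPM between time points for each factor, with diamonds for all cells (red where called) and open circles for each combination of naming sets, and dotted lines at a 2-fold change. Hey1 and Tbx2 for P1 to E12.5 have no point because the limit of the P1 counts lies above their E12.5 level, and the circles of Nr2f1, Tbx3 and Tbx18 for E12.5 to E9.5 lie on both sides of 0.

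**Figure D3:**
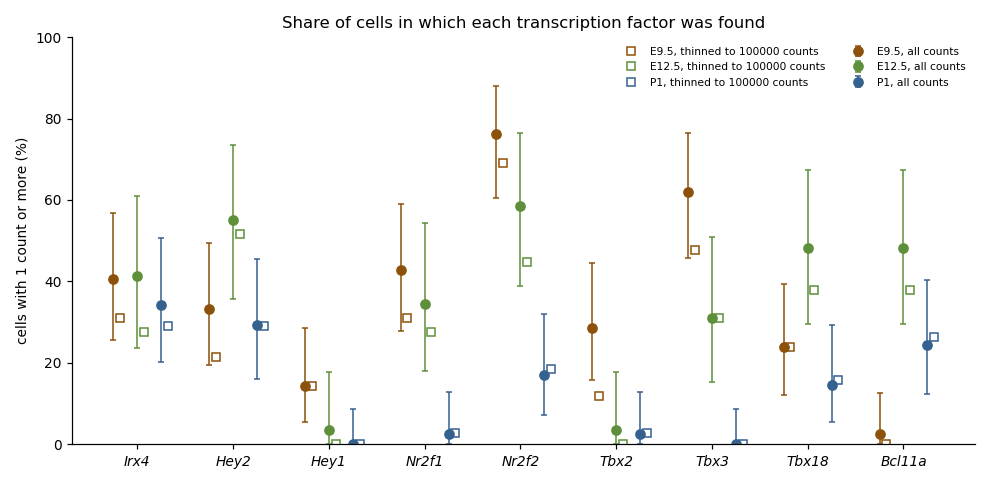
Share of cells, in percent, with 1 count or more of each factor at E9.5, E12.5 and P1, with filled circles and exact 95% intervals over all counts and open squares after thinning to 100000 counts per cell. Thinning moves Tbx2 at E9.5 from 28.6% to 11.9% and Irx4 at E12.5 from 41.4% to 27.6%, and leaves Hey2 and Nr2f2 at P1 almost in place.

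For levels between genes, which depend on transcript length in counts, the deposited TPM, which are scaled by transcript length, were used. At E9.5 the mean TPM was highest for Nr2f2 at 104 ± 140 (SD over 42 cells), followed by Hey2 at 38.7, Nr2f1 at 17.6, Irx4 at 17.6, Tbx3 at 16.3, Hey1 at 15.5, Tbx18 at 9.13, Tbx2 at 5.82 and Bcl11a at 0.01. At E12.5 the order was Nr2f2 at 102 ± 193 (29 cells), Hey2 at 70.2, Nr2f1 at 68.1, Tbx18 at 32.5, Bcl11a at 25.7, Tbx3 at 18.4, Irx4 at 12.2, Hey1 at 0.08 and Tbx2 at 0.04. At P1 it was Hey2 at 50.5 ± 149 (41 cells), Irx4 at 27.4, Nr2f2 at 20.4, Tbx18 at 6.81, Bcl11a at 4.78, Nr2f1 at 0.72 and Tbx2 at 0.18, with Hey1 and Tbx3 at 0. For every factor with a mean above 0 the SD over cells exceeded the mean, so neighbours in these orders do not differ beyond their spread. The ventricular factors held the top places in mean TPM at P1, in place of Nr2f2 at the earlier time points.

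A cell could hold several of these factors at the embryonic time points and few at P1. The median number of factors found per cell was 3 at E9.5 (1 to 6), 3 at E12.5 (0 to 7) and 1 at P1 (0 to 4), and after thinning 3, 2 and 1. No E9.5 cell, 1 E12.5 cell and 7 P1 cells had none. The median number of all genes found per cell, before thinning, was also lower at P1 (2889) than at E9.5 (4502.5) and E12.5 (4189). A ventricular factor (Irx4 or Hey2) and an atrial or canal factor (Hey1, Nr2f1, Nr2f2, Tbx2, Tbx3 or Tbx18) were found in the same cell in 21 of 42 E9.5 cells (50%, 34.2 to 65.8), 15 of 29 E12.5 cells (51.7%, 32.5 to 70.6) and 2 of 41 P1 cells (4.88%, 0.596 to 16.5). The product of the 2 shares over all cells of a time point gave 22.6, 15.9 and 6.44 cells. After thinning the shares were 33.3%, 31.0% and 2.63%, and the products 16.7, 11.2 and 6.08 cells against 14, 9 and 1 observed. Within E9.5 the share was 28.6% in set C (8.39 to 58.1) and 60.7% in set N530. Tbx18, a factor of the sinus horns and the epicardium, was counted here with the atrial and canal factors. E12.5 cells 1, 2, 6 and 13 and P1 cell 35 were counted as holding both through Tbx18 alone. At E9.5 every cell with Tbx18 also had Nr2f2. A share without Tbx18 was not computed. The combinations at P1 were of low counts on one side. P1 cell 28 had Irx4 at 14.9 CPM beside Nr2f2 at 71.0 and Tbx18 at 52.3 CPM, and P1 cell 35 had Hey2 at 540 CPM beside Tbx18 at 6.00 CPM. At P1, 22 cells had only ventricular and 9 only atrial or canal factors, and 8 neither.

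Over the 36 pairs of factors, the number of cells with both was set beside the sum over naming sets of the product of the 2 shares. Of the pairs for which this product was 1 cell or more, 13 of 28 lay above it at E9.5, 16 of 21 at E12.5 and 4 of 10 at P1. The same was not computed for pairs of other genes, so these numbers cannot be set against all genes. Nr2f1 lay with Nr2f2: of 18, 10 and 1 cells with Nr2f1 at E9.5, E12.5 and P1, 17, 9 and 1 also had Nr2f2, where the products gave 14.6, 6.13 and 0.171. Hey2 and Nr2f2 shared fewer cells than their products at all time points, 9 against 11.1, 6 against 9.5 and 0 against 2.05. Hey2 and Nr2f1 did so as well, with 4 against 6.54 at E9.5, 3 against 5.70 at E12.5 and 0 against 0.293 at P1. At E9.5, 11 of 12 cells with Tbx2 had Tbx3 (product 8.21), and 9 of them had Irx4 (product 4.79), a ventricular factor. Tbx18 shared 8 cells with Nr2f1 at E9.5 (product 4.39) and 10 of its 10 cells had Nr2f2. The ventricular factors did not exclude each other in the embryo, with 6 cells with both at E9.5 (product 5.61) and 8 at E12.5 (product 6.00), and at P1 they shared 2 cells (product 4.098). Most of these gaps are of 1 to 4 cells.

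**Figure D4:**
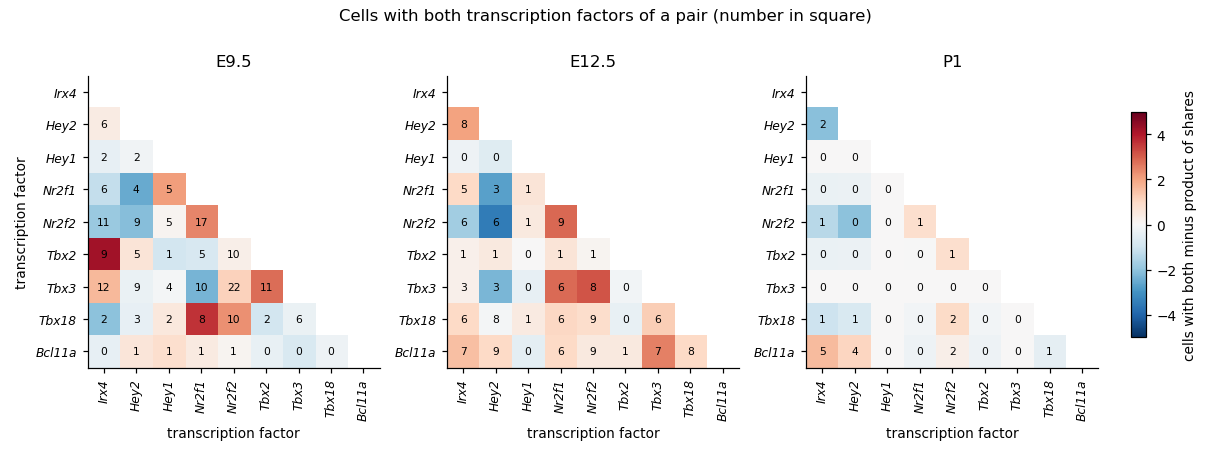
Number of cells with both factors of a pair (number in the square) at E9.5, E12.5 and P1, coloured by the difference from the product of their shares summed over naming sets. Red squares for Nr2f1 with Nr2f2 and blue squares for Hey2 with Nr2f2 recur at each time point, and most P1 squares hold 0 cells.

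Myl2 and Nppa were then compared between cells with and without each factor, within naming sets with at least 3 cells on each side, as the difference of mean log2(CPM + 1). A difference of at least 1 in the same direction in every such set was counted. Of 20 combinations of factor and time point, Myl2 was lower in 5 and higher in 6, and Nppa was lower in 6 and higher in 5. With every gene tested in the place of a factor, the same rule counted Myl2 as lower in 14.0% and higher in 32.6% of 25235 combinations of gene and time point, and Nppa as lower in 19.1% and higher in 28.0%. The numbers with higher Myl2 or higher Nppa are thus near what the table gives for any gene. At E12.5 alone, Myl2 was higher with 43.2% of genes, and at P1 with 38.6%. At P1, Nppa was lower with 35.6% of genes and higher with 28.9%. Cells are not replicates, and these values describe the cells at hand. Cells with Irx4 had more Myl2 at all 3 time points, by 5.15 and 1.68 in sets C and N530 at E9.5, by 4.57 in set C at E12.5 and by 1.66 at P1. They also had more Nppa at E9.5, by 3.29 and 1.24 in these sets, and at E12.5, by 1.303, and less Nppa at P1, by a difference of -1.08. The Nppa differences were less stable: that at E12.5 was -1.17 without the titles ending in "no" and was not counted under 3 other alternatives, that at E9.5 was not counted under 4 (down to 0.46 at 2 counts or more), and that at P1 was not counted under 4 (down to -0.005 at 10 counts or more). At E9.5 in set C, Myl2 was found in 6 of 6 cells with Irx4 and 3 of 8 without it. At P1 the medians ran the other way, 6771 CPM with Irx4 and 7293 CPM without, so that the mean there was set by a few cells without Irx4 and with little Myl2. With a minimum of 3000 genes per cell the P1 difference was 0.45. The E9.5 difference was not counted after thinning (0.60 in the lowest set), and that of E12.5 was not counted when a factor needed 2 counts or more (-1.92 in the lowest set). Without the 5 cells named above the set C difference at E9.5 was 3.17 and that at P1 was 1.24.

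Cells with Hey2 had more Myl2 at E12.5 and P1. In set C of E12.5, Myl2 was found in 12 of 12 cells with Hey2, from 2009 to 5846 CPM, and in 2 of 8 without it, a difference of 8.91. In set N523 the difference was 2.33. At P1 the 12 cells with Hey2 had 6192 to 11491 CPM of Myl2 (median 7759) and the 29 without had 0 to 10524 CPM (median 6423), a difference of 1.91 that was 0.39 with a minimum of 3000 genes and 1.52 without the 5 cells. Nppa was low in the same P1 cells, at 0 to 221 CPM (median 10.2) with Hey2 and 0 to 120233 CPM (median 48.6) without, a difference of -4.40 that held under every alternative. At E12.5 the sign for Nppa differed between the sets, 1.28 in set C and -6.27 in set N523.

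Nr2f2 stood opposite to Hey2 at P1. In the 7 cells with Nr2f2, Myl2 ran from 0 to 4718 CPM (median 6.71) and in the 34 without it from 4646 to 11491 CPM (median 7402), a difference of -7.35 in which only P1 cell 28 reached the range of the cells without Nr2f2. With a minimum of 3000 genes per cell it was -1.89. Nppa ran from 190 to 120233 CPM (median 23793) with Nr2f2 and from 0 to 8556 CPM (median 14.1) without, a difference of 9.66. Sln, which encodes the atrial calcium pump regulator sarcolipin, was found in all 7 cells with Nr2f2 and in 4 of the 34 others, where it reached 74.8 CPM at most. The 6 P1 cells over 1000 CPM of Sln, between 1351 and 6034 CPM, were all among the 7, with Nr2f2 at 66.8 to 166 CPM, Nppa at 3908 CPM or more and no endothelial transcript. The other was P1 cell 25, with Nr2f2 at 1298 CPM, Nppa at 190 CPM, Sln at 4.86 CPM and no Myl2. Without that cell the differences were -6.43 for Myl2 and 10.72 for Nppa. No cell with Nr2f2 at P1 had Hey2, and 1 had Irx4.

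**Figure D5:**
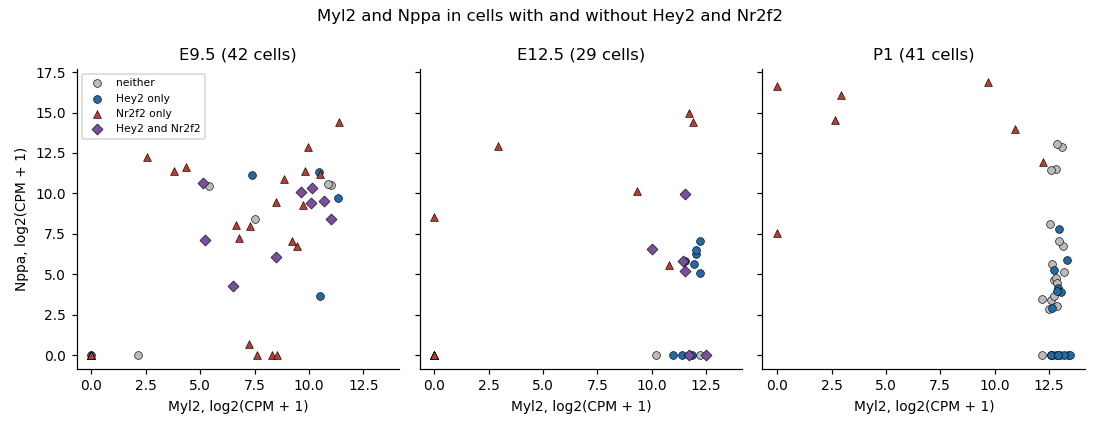
Myl2 against Nppa, both as log2(CPM + 1), in each kept cell at E9.5, E12.5 and P1, marked by the presence of Hey2 and Nr2f2. At P1 the cells with Hey2 sit at high Myl2 and at most 221 CPM of Nppa, and the 7 cells with Nr2f2 lie to the left of nearly all others in Myl2. At E9.5 the marks are mixed.

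At E12.5 the difference in Myl2 for Nr2f2 had the sign seen at P1, and that in Nppa did not. Myl2 was at 0 counts in 6 of 29 cells, all of set C, and all 6 had Nr2f2, at 199 to 1752 CPM. Of these 6, 5 had Nr2f1, 4 had Tbx3, 4 had Tbx18, 4 had Bcl11a and 4 had Sln, and none had Irx4 or Hey2. They expressed 12 to 14 of the 15 cardiomyocyte genes, and 4 of the 6 carried titles ending in "no". Within set C, Myl2 was found in 4 of 10 cells with Nr2f2 and 10 of 10 without it, a difference of -7.13. The difference in Nppa for Nr2f2 in that set was -1.20, opposite in sign to that at P1, and it was 1.48 without the cells titled "no" and not counted under 5 other alternatives. Cells with Nr2f1 had less Myl2 in both sets, with differences of -7.46 in set C and -3.53 in set N523, and the difference for Tbx3 was -4.17 in set C. These 3 differences were counted under every alternative that could be run for them. At E9.5, Myl2 was at 0 counts in 5 cells, all of set C, of which 4 had Nr2f2 and 3 each had Nr2f1 and Tbx18, but E9.5 cells 3, 5 and 8, with few cardiomyocyte genes, were among them.

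Tbx18 went with lower Myl2 at E9.5, and its direction at the later time points was not fixed. At E9.5, cells with Tbx18 had less Myl2, with differences of -7.01 in set C, where all 3 had none, and -2.07 in set N530. E9.5 cells 3 and 8, with few cardiomyocyte genes, were among these 3, and without the 5 cells set C gave no value and set N530 gave -2.46. Without the 5 cells with less than 10000 CPM of cardiomyocyte transcripts, E9.5 cell 30 among them, set N530 gave -2.07. E9.5 cells 3, 8 and 30, all with Tbx18, had 559, 724 and 1131 CPM of fibroblast genes, from 2, 5 and 6 genes, and the other 7 had at most 335 CPM. The highest fibroblast sum at E9.5 was in a cell without Tbx18, E9.5 cell 25, at 4007 CPM from 1 gene. The part of such cells in the Tbx18 values was not tested. The E12.5 sets gave -1.63 (C) and 1.19 (N523). At P1 the 6 cells with Tbx18 had 1.11 more Myl2 and 2.27 more Nppa, with Nppa found in 5 of 6 at a median of 1455 CPM against 16.9 CPM in the 35 others, although Nppa overlapped widely. No cell lay near this median, the values being 0, 25.7, 33.8, 2876, 3908 and 16057 CPM. The highest were of P1 cells 28 and 12, which also had Nr2f2 and over 1000 CPM of Sln. The Myl2 value, beside 38.6% of genes with higher Myl2 at P1, was under 1 in 6 of the alternatives, at -0.08 with a minimum of 3000 genes and 0.77 without the 5 cells. Tbx3, which is known to repress Nppa, had Nppa of opposite sign in the E9.5 sets (-3.23 for set C, 1.09 for set N530) and -1.97 in set C of E12.5, where Nppa was found in 2 of 8 cells with and 6 of 12 cells without Tbx3. Tbx2 at E9.5 gave differences of 0.15 for Myl2 and 0.34 for Nppa, in set N530 only. Cells with Hey1 in that set had 1.48 more Nppa, at 268 to 2730 CPM in 5 cells. Cells with Bcl11a had less Nppa at E12.5, with differences of -1.60 and -4.48 in sets C and N523, and at P1 of -2.04, although P1 cell 4 had Bcl11a at 282 CPM and Nppa at 69474 CPM. When a factor needed 10 counts or more, neither time point was counted (-0.74 in the lesser E12.5 set and -0.84 at P1), and with a pseudocount of 10 CPM E12.5 was not (-0.94).

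The genes whose levels over cells were most like those of a factor were ranked by the mean over naming sets of Pearson's r of log2(CPM + 1), as a description. For Nr2f2 these were Igfbp5 (0.47), Gnao1 (0.46) and Myl7, the atrial regulatory myosin light chain (0.45, from -0.15 to 0.95 over 5 sets). For Nr2f1 they were Gng2 (0.55), Nt5c3 (0.52) and Mybphl (0.52) over 2 sets of 48 cells. Hey2 was most like Gnl3 (0.51), Irx4 like Mrps10 (0.45), Tbx3 like Ppp1r3a (0.60) and Tbx18 like Fzd3 (0.43). Hey1 and Tbx2 could be ranked in set N530 alone, where 2810006K23Rik (0.77) and Slc38a10 (0.83) came out on top. The points share library and depth within a set, and the candidates numbered between 3803 and 5932 genes.

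Chamber genes other than the factors moved with time in both directions. Of 14 ventricular genes tested at P1 against E9.5, 4 were called higher and 6 lower, and of 14 atrial genes 4 higher and 3 lower, beside 19.2% higher and 33.7% lower over all genes, with median log2 ratios of -0.78 and -0.75 that lie near the -0.67 of all genes. At P1 against E12.5, 6 ventricular genes were called higher and 5 lower, and 5 atrial genes each way, beside 21.4% and 21.2%. The medians there were 0.70 and 0.32, against -0.36 over all genes. Myl2 itself was called higher at each step, with means of 655 ± 772, 2446 ± 1813 and 6373 ± 2884 CPM, and the naming sets gave log2 ratios to E9.5 of 1.87 to 1.98 for E12.5 and 3.27 to 3.32 for P1. The atrial light chains Myl7 and Myl4 were called lower at P1, from 9754 to 2603 CPM and from 2570 to 491 CPM. Nppa was found in 33 of 42, 16 of 29 and 31 of 41 cells and its mean at E12.5 was 42.2 CPM in set C and 8000 CPM in set N523, so its E12.5 values differ more between sets than between time points. Outflow and second heart field genes were called lower in 6 of 7 tested at P1 against E9.5, beside 33.7% of all genes, among them Mef2c (647 and 126 CPM), and at P1 against E12.5 1 of 7 was called lower (Isl1) and 1 higher (Wnt11), beside 21.2% and 21.4%, with a list median of -2.45, while Hand2 had 16.9, 24.3 and 17.8 CPM and was not called.

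Of the markers of other cell types, endothelial, epicardial, fibroblast and smooth muscle genes were called lower at P1 than at E9.5 in 2 of 6, 4 of 5, 5 of 7 and 6 of 7 tested, as was the single macrophage gene tested, beside the 33.7% over all genes. Cdh5 (endothelial), Sema3d (epicardial) and Fbln2 (fibroblast) were called higher, and no smooth muscle gene was. Of 3 neural crest and neural genes 2 were called higher, of 15 cardiomyocyte genes 5 higher and 4 lower, and of 8 relatives of the factors 1 each way. No erythroid gene could be tested. The summed epicardial level reached 2696 CPM in an E9.5 cell and 486 CPM in a P1 cell, with medians of 11.2 and 0 CPM. The part of such cells or transcripts in the lower levels of Nr2f1, Nr2f2, Tbx2 and Tbx3 at P1 was not tested, and without the 5 cells named above these 4 factors were still called lower. Digestion differed between the embryonic and P1 hearts, which cannot be told apart from age. The 11 P1 cells with too few genes held 28 counts of Irx4 and 1 of Hey2 and none of the other 7 factors.

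All 9 genes were protein-coding on GRCm38, at chr13:73260479-73269608 (Irx4, plus strand), chr10:30832359-30842801 (Hey2, minus), chr3:8663359-8667256 (Hey1, minus), chr13:78188973-78199757 (Nr2f1, minus), chr7:70351944-70366735 (Nr2f2, minus), chr11:85832551-85841948 (Tbx2, plus), chr5:119670669-119684724 (Tbx3, plus), chr9:87702800-87731260 (Tbx18, minus) and chr11:24078056-24174123 (Bcl11a, plus). The transcription start within the promoter window of Nr2f1 lay 884 bases from this gene start, and that of Bcl11a 2639 bases. Nr2f2 overlaps B130024G19Rik by 1826 bases and Nr2f1 overlaps A830082K12Rik by 1741 bases, both on the opposite strand and both with rows of their own in the table. Myl2 overlaps Ccdc63 in the same way by 5433 bases. Tbx3, Tbx18, Bcl11a and Nppa overlap opposite-strand genes that have no row. Whether the counting used strand is not given in the sources used here, so reads of these neighbours cannot be told apart.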

How the data were processed

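Single αMHC-GFP+ cells were amplified with SMART-Seq V4 chemistry on Fluidigm C1 chips and sequenced with a NextSeq. Reads were aligned with OLego. The authors deposited raw counts per gene symbol from featureCounts, and TPM computed from these by custom scripts, on a linear scale although a log2 step is described. The submitters' processing notes list GRCm38 and mm10. Embryonic hearts were digested with collagenase, P1 hearts with Liberase. From 123 cells, 112 with 2000 or more genes were kept (69522 to 7711355 counts per cell), and comparisons covered the 12159 genes with counts in at least 3 of them. CPM used the column totals (Python 3.11.15, scipy 1.17.1). TMM factors came from edgeR 4.0.16 (R 4.3.3). Each time point counted as 1 sample, without a test. No clusters and no doublet calls were made. The scripts were tested on simulated data. Alternatives were pooled counts, TMM, TPM, thinning, other minimum counts, genes and pseudocounts (10 for 1 CPM), single naming sets, and leaving out top cells, cells titled "no" or, chosen after seeing the data, 5 cells with few cardiomyocyte or many endothelial transcripts or the 5 with less than 10000 CPM of cardiomyocyte transcripts. Named genes were the 9 factors, Myl2, Nppa, up to 4 genes with the highest mean CPM of each of 14 lists, and the 3 genes most like each factor, not all of which are given; Sln was followed because it is among the atrial genes. Cells named by number were singled out after their values were seen. The factors and lists were chosen with earlier results of these data known. Gene positions are from GENCODE (GRCm38).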

Additional observations from a re-analysis of the deposited data

How the results depend on the processing

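No paired analysis was possible because each time point is 1 sample and the replicate numbers follow accession order only. Of 140 values of the 13 main results, 113 stayed in their range and 27 moved, and of 300 ratios of single factors under alternatives 264 stayed within the SD between naming sets and 36 moved. This SD ran from 0.339 (Nr2f2, P1 to E9.5) to 3.48 (Tbx3, P1 to E12.5) on the log2 scale. A move of several fold could therefore count as staying. No ratio of a factor called in that comparison changed sign (0 of 180), while 15 ratios not called did, among them that of Tbx3 at E12.5 to E9.5. A call required the same sign in every combination of naming sets, so for called ratios the sign in set C alone was fixed by the rule. Factors lower at P1 than at E9.5 numbered 3 after thinning and 4 without the 5 cells with few cardiomyocyte or many endothelial transcripts (5 in the main comparison). Those higher at P1 than at E9.5 (1) numbered 3 with TMM factors, 3 without titles ending in "no", 3 in set C alone, 2 after thinning and 2 without the cell with the most counts. Those lower at E12.5 than at E9.5 (2) numbered 0 after thinning, 1 without those 5 cells and 1 without the 5 cells with less than 10000 CPM of cardiomyocyte transcripts, both alternatives chosen after seeing the data. Those higher at E12.5 (2) numbered 1 with pooled counts, 1 after thinning, 1 with TPM and 4 in set C alone. The 1 factor higher at P1 than at E12.5 became 0 with pooled counts, with TMM factors and with a minimum of 3000 genes. The share of cells with a ventricular and an atrial or canal factor was 33.3% after thinning and 28.6% in set C alone at E9.5 (50%), 31.0% after thinning, 27.6% at 10 counts or more and 75% in set N523 alone at E12.5 (51.7%), and 0% at 10 counts or more at P1 (4.88%). Combinations with lower Myl2 (5) numbered 8 at 10 counts or more and 9 after thinning, those with higher Myl2 (6) numbered 3 with a minimum of 3000 genes, and those with lower Nppa (6) numbered 3 at 10 counts or more and 3 with a pseudocount of 10 CPM. The cause of these changes was not tested. At P1, where 1 count is worth most, absence below 0.440 CPM was not detectable.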
